A study of Mus musculus with 28 samples.

Results

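The 9 genes described here encode transcription factors of the skeletal muscle lineage and a muscle fusion protein: Myod1, Myog, Myf5, Myf6, Mef2a, Mef2c, Mef2d, Pax7 and Mymk. They were taken by name from the 55536 genes of the count tables, and all 9 were found. Myod1, Myf5, Myog and Myf6 encode the basic helix-loop-helix myogenic factors, which pair with E proteins and bind the short DNA motif known as the E-box. In myoblasts Myf5 and Myod1 commit cells to the lineage, Myog is switched on as cells leave the cycle and differentiate, and Myf6 (also called MRF4) acts mainly in differentiated fibres. Mef2a, Mef2c and Mef2d encode MADS-box factors that act with them on muscle genes, Pax7 marks satellite cells, the stem cells of muscle, and Mymk encodes Myomaker, a membrane protein that drives myoblast fusion together with Myomixer, the product of Mymx.

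Polyadenylated RNA was measured in 28 libraries of 3 mouse cell lines, in 7 groups of 4. C2C12 is a muscle line, labelled as myotubes here, and was profiled from a shared culture with EO771 and alone. MLg is a lung fibroblast line, profiled from a shared culture with EO771 and alone. EO771 is a breast cancer line, profiled from the cultures with C2C12, from those with MLg, and alone. All groups are labelled wild type, each line is a single established line, and DMEM with fetal bovine serum is the medium given for all of them. The labels do not say how 2 lines grown together were parted before extraction, for how long they shared a dish, or how the myotubes were formed. Libraries carry names such as R3-1, an R number followed by a count within it, and what the R number stands for is not said. Nothing says that the replicates were separate cultures, so the p-values speak only of how far these libraries spread, and that spread may be technical.

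Total counts per library ran from 27612567 to 96491326. A count of 0 allows up to 3 counts, between 0.0311 and 0.109 CPM (a gene's counts over the total of its library, as counts-per-million) depending on the library, and such floors cover counting error only. In 5 co-cultured libraries (EO771 with C2C12 R3-1, R5-1 and R6-1, MLg with EO771 R5-1 and R6-1) every count was even. The file names of EO771 with C2C12 R5-1 and R5-2 carry each other's name, and the recorded assignment was followed. The 10 skeletal muscle markers summed to 540 to 2122 CPM in C2C12 with EO771 and 195 to 3847 CPM in C2C12 alone. Their sum was 6.32 to 14.5 CPM in MLg with EO771 and 6.77 to 13.7 CPM in MLg alone. In EO771 it was 85.2 to 302 CPM with C2C12, 13.8 to 23.5 CPM with MLg and 18.9 to 21.2 CPM alone. The 11 fibroblast markers were high in C2C12 as well, summing to 29486 to 34583 CPM with EO771 and 25573 to 29943 CPM alone. In MLg they summed to 21859 to 25080 CPM with EO771 and 23761 to 30303 CPM alone. In EO771 they summed to 220 to 451 CPM with C2C12, 295 to 491 CPM with MLg and 92.6 to 125 CPM alone. Transcripts specific to the partner line, when each line was grown alone, were found in every co-cultured library. Whether they came from partner cells was not tested. Genes specific to EO771 (57 genes) stood at a median of 4.17% ± 0.831 (SD, n = 4) of their partner level in C2C12 with EO771, and genes specific to C2C12 (360 genes) at 0.964% ± 0.357 (SD, n = 4) in EO771 with C2C12. In bulk RNA, fewer cells of a type and less RNA per cell cannot be told apart.

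Start site regions were read for 4 members, Myog and Mef2c because their levels moved together across the C2C12 libraries, Myf5 and Mef2a because theirs did not. The RefSeq promoter table (GRCm38.p6) holds 8 promoters for 6 of the 9 members, each from 250 bases before to 50 bases after a start site. Capitals mark the E-box CANNTG and CTANNNNTA, a loose form of the MEF2 motif searched on both strands, where N is any base and a match on both strands can overlap itself. The regions are Myog at chr1:134289754-134290053 on the plus strand, Mef2c at chr13:83503784-83504083 on the plus strand (the first of its 3 entries), Myf5 at chr10:107486085-107486384 on the minus strand and Mef2a at chr7:67372809-67373108 on the minus strand.
Myog: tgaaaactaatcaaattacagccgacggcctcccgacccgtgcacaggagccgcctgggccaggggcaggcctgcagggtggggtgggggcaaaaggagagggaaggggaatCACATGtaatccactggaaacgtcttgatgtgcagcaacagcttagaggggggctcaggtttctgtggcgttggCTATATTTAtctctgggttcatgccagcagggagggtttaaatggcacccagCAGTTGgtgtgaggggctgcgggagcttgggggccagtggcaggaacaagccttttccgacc
Mef2c: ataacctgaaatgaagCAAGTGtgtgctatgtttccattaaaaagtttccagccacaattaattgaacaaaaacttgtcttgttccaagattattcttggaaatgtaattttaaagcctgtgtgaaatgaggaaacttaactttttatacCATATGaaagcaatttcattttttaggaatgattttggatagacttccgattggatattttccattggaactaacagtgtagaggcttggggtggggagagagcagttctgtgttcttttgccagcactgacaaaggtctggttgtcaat
Myf5: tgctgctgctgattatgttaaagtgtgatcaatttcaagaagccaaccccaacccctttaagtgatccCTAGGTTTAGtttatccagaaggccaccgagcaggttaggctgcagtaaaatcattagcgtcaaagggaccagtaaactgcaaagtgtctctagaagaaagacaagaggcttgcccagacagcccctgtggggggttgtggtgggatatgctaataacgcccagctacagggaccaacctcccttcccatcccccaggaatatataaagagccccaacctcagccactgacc
Mef2a: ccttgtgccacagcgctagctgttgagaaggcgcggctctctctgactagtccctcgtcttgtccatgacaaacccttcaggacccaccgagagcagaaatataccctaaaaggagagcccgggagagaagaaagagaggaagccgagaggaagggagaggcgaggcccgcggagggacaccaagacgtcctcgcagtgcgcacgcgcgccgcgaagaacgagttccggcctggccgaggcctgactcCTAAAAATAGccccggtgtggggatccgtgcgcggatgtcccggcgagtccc
The Myog region held 2 E-boxes, CACATG with its first base 138 bases before the start site and CAGTTG 12 bases before it, and a CTANNNNTA match, CTATATTTA, 64 bases before it. The Mef2c region held 2 E-boxes and no CTANNNNTA match, and the Myf5 and Mef2a regions held CTANNNNTA on both strands of 1 stretch and no E-box. The motifs did not follow the levels across members: the Pax7 and Mef2d regions held neither motif, the second Mef2c entry held neither, and the third held 1 of each. Of all 32851 promoters in the table, 72.3% held CANNTG and 21.0% held CTANNNNTA. A match of these letters describes the window and is not a measured binding site.

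In the lines grown alone, the myogenic factors, Pax7 and Mymk were C2C12 transcripts, while the MEF2 genes were shared. Myod1 (ENSMUSG00000009471, chromosome 7, 46376474 to 46379099, GRCm38), the factor able to turn other cells into muscle, averaged 33.9 ± 26.3 CPM in C2C12 alone, 0.0153 ± 0.0177 CPM in MLg alone and 0 CPM in EO771 alone (SD, n = 4). Myog (ENSMUSG00000026459, chromosome 1, 134289989 to 134292548), which encodes myogenin, averaged 46.7 ± 43.4 CPM in C2C12 alone and 0.0942 ± 0.148 CPM in MLg alone (SD, n = 4), and was at 0 in all 4 libraries of EO771 alone. Myf5 (ENSMUSG00000000435, chromosome 10, 107482908 to 107486134) averaged 24.2 ± 3.01 CPM in C2C12 alone, with 2 counts in all in MLg alone and none in EO771 alone. Its SD relative to its mean was the smallest of the 4 myogenic factors there. Myf6 (ENSMUSG00000035923, chromosome 10, 107492853 to 107494737), its neighbour on the same strand, averaged 0.552 ± 0.620 CPM in C2C12 alone (SD, n = 4) and was at 0 in every library of MLg alone and EO771 alone.

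Against EO771 alone, taken at 3 counts per library, C2C12 alone was at least 405-fold higher for Myod1, 557-fold for Myog, 290-fold for Myf5 and 6.60-fold for Myf6. Mymk (ENSMUSG00000009214, chromosome 2, 27061636 to 27072179) averaged 59.2 ± 58.5 CPM in C2C12 alone and 0.125 ± 0.0603 CPM in MLg alone (SD, n = 4). With 0 counts in EO771 alone, its level in C2C12 alone was at least 707-fold higher. Pax7 (ENSMUSG00000028736, chromosome 4, 139737062 to 139833528) averaged 4.82 ± 6.86 CPM in C2C12 alone (SD, n = 4) and was at 0 in all libraries of MLg alone and EO771 alone, so that C2C12 alone was at least 107-fold above MLg alone and 57.6-fold above EO771 alone. These bounds lean on C2C12 alone R5-1, without which they were 31.8-fold and 17.1-fold for Pax7. Against EO771 alone and without R5-1 they were 264-fold for Myod1, 351-fold for Myog, 425-fold for Mymk and 2.91-fold for Myf6. Members called are those with an adjusted p under 0.05 by edgeR's quasi-likelihood test with Benjamini-Hochberg adjustment over all genes tested. Called higher in C2C12 alone than in MLg alone were 8 of 9 members (61.9% of 18755 genes were called, 31% higher), all but Mef2c. Against EO771 alone 8 of 9 were higher (78.2% called, 42% higher and 36.2% lower), all but Mef2d. Myod1, Myog, Myf5, Myf6, Pax7 and Mymk were at or near 0 in MLg alone and EO771 alone and passed the low-count filter only through C2C12 alone, so these 6 had to differ and both counts are a description.

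Mef2a (ENSMUSG00000030557, chromosome 7, 67231163 to 67372858) averaged 145 ± 23.4 CPM in C2C12 alone, 68.8 ± 2.20 CPM in MLg alone and 75.8 ± 11.0 CPM in EO771 alone (SD, n = 4). It was higher in C2C12 alone than in MLg alone by a log2 fold change of 1.24 ± 0.13 (SE, adjusted p = 1.97e-06, edgeR) and than in EO771 alone by 1.1 ± 0.13 (SE, adjusted p = 2.75e-06, edgeR). Its levels in MLg alone and EO771 alone overlapped (log2 fold change -0.14 ± 0.13 SE, adjusted p = 0.330). Mef2c (ENSMUSG00000005583, chromosome 13, 83504034 to 83667080) averaged 20.2 ± 20.1 CPM in C2C12 alone and 13.0 ± 4.15 CPM in MLg alone, against only 0.0890 ± 0.0570 CPM in EO771 alone (SD, n = 4). Both differences from EO771 alone were called, at log2 7.89 for C2C12 (adjusted p = 4.93e-06) and 7.13 for MLg (adjusted p = 1.34e-05). Mef2c was near 0 in EO771 alone and passed the filter only through C2C12 alone and MLg alone, so both calls are a description.

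Between C2C12 alone and MLg alone Mef2c had a log2 fold change of 0.76 ± 0.61 (SE, adjusted p = 0.297, edgeR), and without the R3 libraries of C2C12 it was called, at 1.58 ± 0.26 (SE, adjusted p = 0.000187). Mef2d (ENSMUSG00000001419, chromosome 3, 88142372 to 88172086) averaged 141 ± 31.5 CPM in C2C12 alone, 108 ± 3.49 CPM in MLg alone and 138 ± 15.6 CPM in EO771 alone (SD, n = 4). It was higher in C2C12 alone than in MLg alone (log2 0.53 ± 0.12 SE, adjusted p = 0.00193) and lower in MLg alone than in EO771 alone (log2 -0.36 ± 0.12 SE, adjusted p = 0.0166), while C2C12 alone against EO771 alone gave 0.17 ± 0.12 (SE, adjusted p = 0.209). The call against MLg reads relative to a median over all genes of -0.03, which scaling by library totals moved to -0.19, with Mef2d at 0.38. The lower level in MLg was not called without MLg alone R6-1 (adjusted p = 0.123) or EO771 alone R5-1 (adjusted p = 0.0735), and the C2C12 and EO771 difference was called without the R3 libraries of C2C12 (log2 0.40 ± 0.10 SE, adjusted p = 0.00271). Between MLg alone and EO771 alone 2 of 9 members were called, Mef2c higher and Mef2d lower (77.6% of genes called, 40.8% higher and 36.8% lower). For Mef2c, near 0 in EO771 alone, the call is a description.

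Per kilobase of exon, the order of mean levels in C2C12 alone was Mymk 39.2, Myog 31.2, Mef2d 23.5, Myod1 18.2, Myf5 11.6, Mef2a 9.88, Mef2c 1.28, Pax7 0.823 and Myf6 0.437 CPM per kilobase. The SDs of Mymk (38.7), Myog (29.0) and Myod1 (14.1 CPM per kilobase, n = 4) were close to their means, yet the same libraries carry both genes of a pair. Within each library Mymk stood above Myog in all 4 libraries of C2C12 with EO771 and all 4 of C2C12 alone. Myog stood above Mef2d in 3 of 4 libraries with EO771 and 2 of 4 alone, and Mef2d above Myod1 in 2 of 4 with EO771 and 3 of 4 alone, so these neighbours had no fixed order. In EO771 alone Mef2d, at 23.1 ± 2.61 CPM per kilobase (SD, n = 4), stood above Mef2a at 5.16 ± 0.750 and Mef2c at 0.00566 ± 0.00363. In MLg alone the order was the same, with Mef2d at 18.1 ± 0.583, Mef2a at 4.69 ± 0.150 and Mef2c at 0.824 ± 0.264 CPM per kilobase (SD, n = 4). Mef2a shares 302 of its 14681 exon bases with the antisense gene Lysmd4, and Mef2d 531 of 5985 with 1700113A16Rik. No source used here gives the strand option of the read counting, so reads there could belong to either gene.

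**Figure D1:**
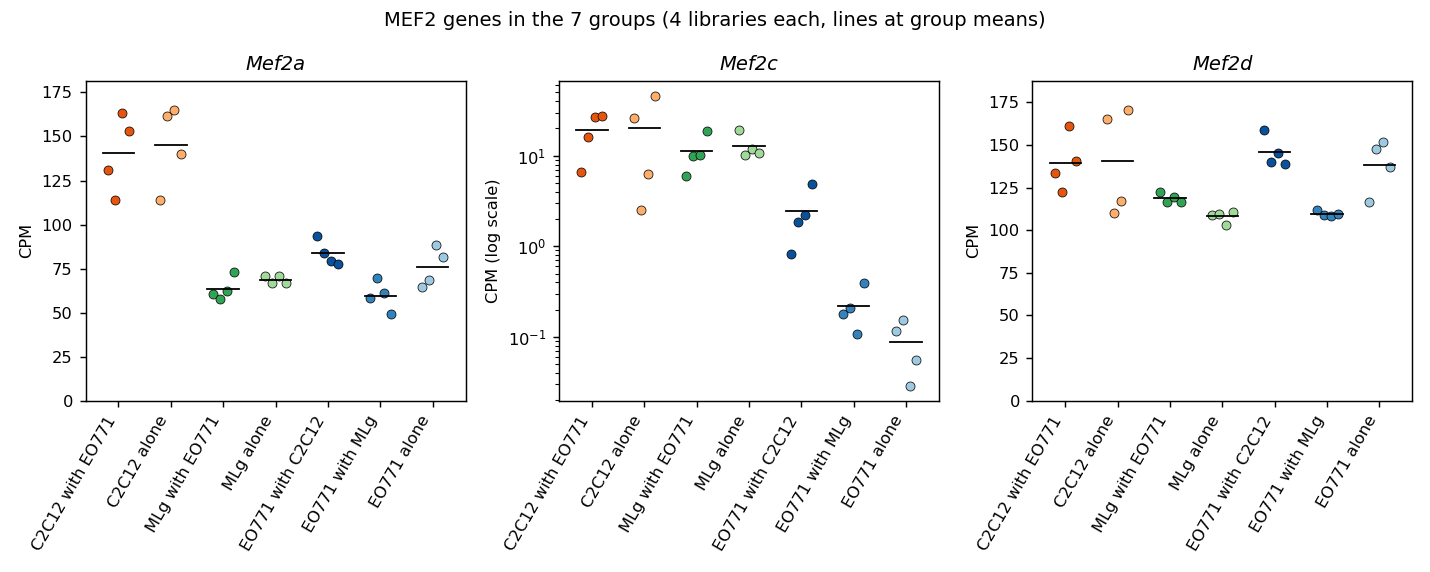
CPM of Mef2a, Mef2c (log axis) and Mef2d in each of the 7 groups, with a point per library and a line at the group mean. Mef2c lies between 0.0285 and 0.154 CPM in EO771 alone and between 0.815 and 4.83 CPM in EO771 with C2C12, while all Mef2d libraries lie between 103 and 170 CPM.

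Within C2C12, the levels of 5 members split by the R number of the library. The 3 libraries labelled R3 (1 with EO771, 2 alone) lay below all 5 others for Myod1, Myog, Mef2c, Pax7 and Mymk, and for no member above them. Of the 10479 genes at a mean of at least 5 CPM in C2C12, 1273 (12.1%) had all R3 libraries below all others and 607 (5.79%) had them above. This grouping was chosen after the values were seen and carries no test.

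Myog had 15.5, 55.1, 43.1 and 42.2 CPM in C2C12 with EO771 (R3-1, R5-1, R5-2, R6-1, the order used for that group throughout), against 66.5, 9.48, 12.2 and 98.4 CPM in C2C12 alone (R2-1, R3-1, R3-2, R5-1, likewise). The groups overlapped, and the mean of the 5 other libraries was 4.93-fold that of the 3 R3 libraries. Mymk had 15.7, 70.6, 67.8 and 60.9 CPM in C2C12 with EO771, against 84.2, 9.97, 12.4 and 130 CPM in C2C12 alone. It gave the same picture, 6.50-fold higher in the other libraries than in R3. The ratio of Myog to Mymk CPM was 0.951 to 0.984 in the 3 R3 libraries and 0.635 to 0.790 in the 5 others, so Mymk split more widely than Myog.

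Myod1 had 9.88, 63.8, 50.7 and 40.2 CPM in C2C12 with EO771, against 37.9, 13.0, 15.3 and 69.5 CPM in C2C12 alone, 4.11-fold higher outside R3. Mef2c had 6.60, 16.3, 26.5 and 27.3 CPM in C2C12 with EO771, against 25.8, 2.54, 6.28 and 46.1 CPM in C2C12 alone, 5.53-fold higher outside R3. Pax7 had 0.690, 11.5, 15.4 and 13.3 CPM in C2C12 with EO771, against 2.92, 0.684, 0.698 and 15.0 CPM in C2C12 alone. The gene of the stem cell factor thus showed the widest split, 16.8-fold, and it was low in the same R3 libraries in which the differentiation factor Myog was low. Mymx, the gene of the fusion partner Myomixer, had 2.97, 4.99, 3.59 and 3.39 CPM in C2C12 with EO771, against 7.13, 1.61, 2.14 and 6.94 CPM in C2C12 alone, 2.33-fold higher outside R3.

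Myf5 stood apart from these. It had 22.5, 23.6, 26.2 and 21.4 CPM in C2C12 with EO771, against 21.1, 23.6, 23.9 and 28.4 CPM in C2C12 alone, and the R3 libraries lay among the others (1.03-fold). Mef2a had 131, 114, 163 and 153 CPM in C2C12 with EO771, against 114, 161, 165 and 140 CPM in C2C12 alone, with R3 again among the others (0.898-fold). Mef2d ranged from 123 to 161 CPM in C2C12 with EO771 and from 110 to 170 CPM in C2C12 alone, 1.26-fold higher outside R3 with overlap. Myf6 stayed between 0.276 and 0.858 CPM in C2C12 with EO771 and between 0.182 and 1.48 CPM in C2C12 alone. The summed muscle markers followed the same split, at 540 CPM in the R3 library with EO771 and 195 and 489 CPM in those alone, against 1613 to 2122 CPM in the other libraries with EO771 and 3331 and 3847 CPM in the others alone. Their part in these levels was not tested.

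**Figure D2:**
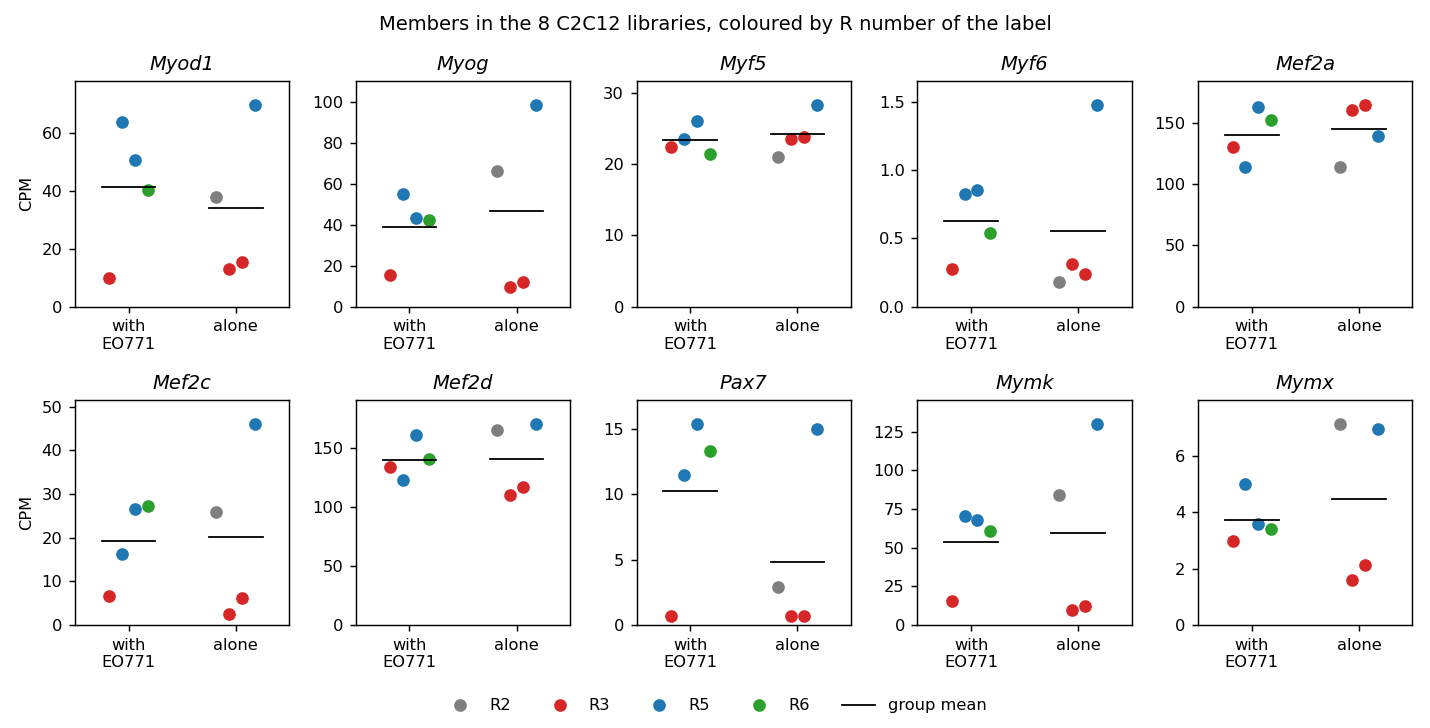
CPM of the 9 members and of Mymx in the 8 C2C12 libraries, C2C12 with EO771 left and C2C12 alone right in each panel, a point per library coloured by R number and a line at the group mean. The red R3 points are lowest in the panels of Myod1, Myog, Mef2c, Pax7, Mymk and Mymx, and lie among the others for Myf5 and Mef2a.

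The genes most like Myod1, Myog and Mymk were sought among 10478 genes at a mean of at least 5 CPM, by Pearson's r of log2(CPM + 1) over the 8 C2C12 libraries. These libraries fall into R3 and other libraries, so r mainly reads that split and is a description only. Nearest to Myog were Myl4, an embryonic and atrial myosin light chain (r = 0.999), Pgam2, the muscle phosphoglycerate mutase (0.997), and Actc1, cardiac actin (0.994). Myl4 averaged 8.34 CPM in R3 and 79.4 CPM in the other libraries. Nearest to Mymk were Synpo2l (0.997), the tropomodulin gene Tmod1 and Baiap2l1 (0.996 each). Nearest to Myod1 were Ttc9 (0.992), Tppp3 (0.991) and Chrna1, the acetylcholine receptor alpha subunit of the neuromuscular junction (0.990), which averaged 83.5 CPM in R3 and 409 CPM in the others.

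The presence of EO771 was not associated with a called difference of any member in C2C12. Of the 9 members 0 were called, against 445 of 16625 genes (2.68%, with 2.58% higher), and 0 members had an unadjusted p under 0.05 or were called by DESeq2. Nor did any member's groups lie apart, as those of 7.88% of genes did. These background shares are without subtraction of EO771 counts. With EO771 counts subtracted at the median share of EO771-specific genes, 128 of 16426 genes were called, 122 of them higher. The values below are without subtraction. Myod1 averaged 41.2 ± 23.0 CPM in C2C12 with EO771 and 33.9 ± 26.3 CPM alone (SD, n = 4), a log2 fold change of 0.25 ± 0.60 (SE, adjusted p = 0.943, edgeR). For Myog the means were 39.0 ± 16.7 and 46.7 ± 43.4 CPM in the same order (SD, n = 4), with a log2 fold change of -0.28 ± 0.68 (SE, adjusted p = 0.942). The SEs show how wide the spread was. Myf5 was measured much more tightly, at 23.4 ± 2.04 CPM with EO771 and 24.2 ± 3.01 CPM alone (SD, n = 4), with a log2 fold change of -0.10 ± 0.12 (SE, adjusted p = 0.851).

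Mymk averaged 53.7 ± 25.7 CPM in C2C12 with EO771 and 59.2 ± 58.5 CPM alone (SD, n = 4; log2 -0.16 ± 0.76 SE, adjusted p = 0.971). Mef2c had a log2 fold change of -0.10 ± 0.75 (SE, adjusted p = 0.984), Mef2a of -0.10 ± 0.16 (SE, adjusted p = 0.897) and Mef2d of -0.06 ± 0.15 (SE, adjusted p = 0.947). Pax7 averaged 10.2 ± 6.56 CPM with EO771 and 4.82 ± 6.86 CPM alone (SD, n = 4; log2 1.07 ± 1.04 SE, adjusted p = 0.809). With 2 of the 3 R3 libraries in C2C12 alone and 1 in C2C12 with EO771, the R number is spread unevenly over the groups. Myf6 had a log2 fold change of 0.15 ± 0.67 (SE, adjusted p = 0.968).

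With a block for the R number, taken to pair the C2C12 libraries, the SEs of Myod1, Myog, Myf6, Mef2c, Pax7 and Mymk shrank and 3 members changed sign. R2 occurs only in C2C12 alone and R6 only in C2C12 with EO771, so the difference in this fit rests on the R3 and R5 libraries. Myod1 turned to -0.42 ± 0.16 (SE, unadjusted p = 0.0242, adjusted p = 0.415, edgeR), Myf6 to -0.50 ± 0.42 and Pax7 to -0.12 ± 0.21 (SE), and Myog stood at -0.29 ± 0.28 (SE). Without the 3 R3 libraries, a choice made after the values were seen, Myog was at -0.84 ± 0.21 (SE, unadjusted p = 0.00324, adjusted p = 0.103) and Mymk at -0.71 ± 0.20 (SE, unadjusted p = 0.00624, adjusted p = 0.151). No member was called in either fit. Within R5, the level in C2C12 with EO771 was 0.499 times that in C2C12 alone for Myog, 0.532 times for Mymk and 0.464 times for Mef2c, with 2 libraries against 1. Within R3, with 1 library against 2, the same ratios were 1.43, 1.41 and 1.5, on the other side of 1. For Myod1 the ratio was below 1 in both (0.824 in R5, 0.697 in R3), as it was for Myf5 (0.877 and 0.945).

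**Figure D3:**
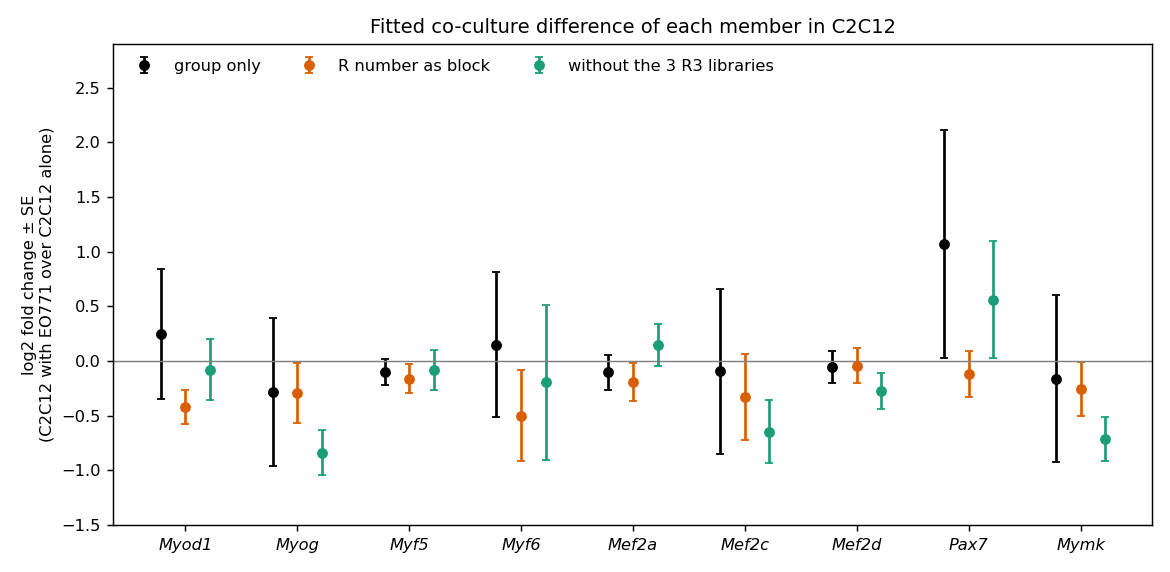
Log2 fold change of each member in C2C12 with EO771 over C2C12 alone, with bars of 1 SE, from the fit on group only, the fit with R numbers as blocks and the fit without the 3 R3 libraries. Pax7 runs from -0.12 with the block to 1.07 on group only, and the bars of Myog are 0.68 on group only and 0.21 without R3.

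Of the 103 other genes of the myogenic pathway tested, 3 were called (2.91%), near the 2.68% of all genes. The E proteins, obligate partners of the myogenic factors, had 0 of 3 members called, Tcf3, Tcf12 and Tcf4. Of the 12 coactivators, 10 tested upstream factors and 27 tested differentiation targets, 0 were called in either direction, with median log2 fold changes of -0.13, -0.03 and -0.19 beside 0.00 over all genes tested. Among the 17 tested inhibitors of the myogenic factors 1 was higher, Twist1, and the median was 0.18. Twist1 averaged 0.995 ± 0.496 CPM in C2C12 with EO771 and was at 0 in all of C2C12 alone, and EO771 with C2C12 held 31.1 ± 5.40 CPM (SD, n = 4).

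The Id genes, whose products bind E proteins and hold myogenic factors off DNA, were not called in C2C12. Id1 averaged 13.7 ± 5.43 CPM with EO771 and 11.2 ± 3.12 CPM alone, Id2 31.8 ± 11.5 and 27.3 ± 13.9 CPM, and Id3 77.9 ± 26.0 and 64.0 ± 10.3 CPM in the same order (SD, n = 4). Of the 13 tested satellite cell genes 1 was higher, Tenm4 at 15.1 ± 3.21 CPM with EO771 and 2.81 ± 0.227 CPM alone (SD, n = 4; log2 2.37 ± 0.17 SE, adjusted p = 0.000102, edgeR). Its level in EO771 with C2C12 was 162 ± 13.3 CPM (SD, n = 4). Among 21 tested other fusion genes 1 was higher, Il4ra, the interleukin 4 receptor gene, at 141 ± 15.2 CPM with EO771 and 94.7 ± 5.93 CPM alone (SD, n = 4; log2 0.52 ± 0.12 SE, adjusted p just under the threshold of 0.05). EO771 with C2C12 held only 16.7 ± 2.81 CPM of Il4ra. Epithelial markers summed to 5.65 to 13.3 CPM in C2C12 with EO771 and 0.622 to 5.83 CPM in C2C12 alone, and their part in the 3 calls was not tested.

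In EO771 kept with C2C12, transcripts of the myogenic factors and of Mymk were present, although EO771 alone and EO771 with MLg held none. Of the 6 members that passed the low-count filter 4 were called higher than in EO771 alone, Myod1, Myog, Mef2c and Mymk, while 33% of 15794 genes were called and 18.7% higher. Of all called genes 56.7% were higher, and 67.4% with scaling by library totals only. The filter passed these members through the group where they were high, so their count is a description. Myf5, Myf6 and Pax7 did not pass it.

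Mymk had 2.21, 2.53, 3.77 and 11.1 CPM in EO771 with C2C12 (R3-1, R5-1, R5-2, R6-1, the order used below) and 0 in EO771 alone, at least 58.4-fold higher. Myog had 1.51, 1.86, 2.75 and 7.53 CPM and was likewise at 0 in EO771 alone, at least 40.8-fold higher. For both genes R6-1 was the highest library, and the groups did not overlap, as in 36.4% of genes. The ratio of Myog to Mymk CPM was 0.681 to 0.733 in these libraries, inside the range of the C2C12 libraries. Myod1 had 0.524, 0.380, 1.45 and 2.49 CPM, at least 14.5-fold above EO771 alone. Without R6-1 the bounds were 33.9-fold for Mymk, 24.4-fold for Myog and 9.37-fold for Myod1. Mef2c had 0.815, 1.86, 2.21 and 4.83 CPM, with a mean of 2.43 ± 1.71 CPM in EO771 with C2C12 and 0.0890 ± 0.0570 CPM alone (SD, n = 4; log2 4.63 ± 0.61 SE, adjusted p = 1.48e-05, edgeR). Mef2c passed the filter only through EO771 with C2C12, so this p-value is a description. Myf5 had 0.466, 0.127, 0.217 and 0.207 CPM, and Pax7 no more than 0.207 CPM. Mymx was also seen, at 0.0844 to 0.967 CPM, and at 0 in EO771 alone.

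The members were not present in one proportion. Set against their level in C2C12 with EO771, Mef2c stood at 12.7% (95% Poisson interval of the counts 10.9% to 14.6%), Mymk at 9.10% (8.19% to 10.1%) and Myog at 8.76% (7.71% to 9.90%). Myod1 stood at 2.94% (2.38% to 3.60%), Myf5 at 1.09% (0.664% to 1.68%, 20 counts) and Pax7 at 1.08% (0.494% to 2.05%, 9 counts), while Myf6, at 7.49%, rested on 5 counts (2.43% to 17.5%). These intervals cover counting error only, with even counts halved, and not the spread between libraries. The 360 C2C12-specific genes had a median share of 0.950%, with quartiles of 0.748% and 1.43%. Myf5 and Pax7 lay within those quartiles. Mef2c ranked 1, Mymk 11, Myog 13, Myod1 39 and Myf5 139 among the 360, which include these 5 members. Without EO771 with C2C12 R6-1 the shares were 8.48% for Mef2c, 5.28% for Mymk, 5.24% for Myog and 1.91% for Myod1, with ranks of 2, 19, 20 and 45. Over all 8 single libraries left out, the rank was 1 to 6 for Mef2c, 10 to 19 for Mymk, 12 to 20 for Myog, 34 to 48 for Myod1 and 97 to 212 for Myf5.

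Of the 25 genes with the highest shares, 8 were on the list of differentiation targets, such as Myl1 at 12.1%, a fast myosin light chain gene, and Chrng at 7.72%, the fetal acetylcholine receptor subunit. The 9 listed targets among the 360 genes had a median share of 8.39% and a range of 1.98% to 12.1%. Paired by R number, the share ran from 3.66% to 18.2% for Mymk, from 3.78% to 17.8% for Myog, from 8.68% to 17.7% for Mef2c, from 0.663% to 6.19% for Myod1 and from 0.509% to 2.08% for Myf5. Mef2c relative to Myf5, a ratio of counts within a library, was 1.75 to 23.3 in EO771 with C2C12 and 0.294 to 1.27 in C2C12 with EO771, with no overlap. Mymk relative to Myf5 was 4.75 to 53.3 in EO771 with C2C12 and 0.701 to 3.00 in C2C12 with EO771, and Myog relative to Myf5 was 3.25 to 36.3 in EO771 with C2C12 and 0.690 to 2.34 in C2C12 with EO771, again with no overlap. Myod1 relative to Myf5 overlapped, at 1.13 to 12.0 in EO771 with C2C12 and 0.440 to 2.71 in C2C12 with EO771. The range for Myog overlapped that in C2C12 alone, 0.401 to 3.47, and the Myf5 counts behind these ratios were few. By library (R3-1, R5-1, R5-2, R6-1), the C2C12-specific genes had median shares of 1.19%, 0.561%, 0.775% and 1.33%, and the muscle markers 4.97%, 6.87%, 10.7% and 18.8%. The muscle marker share was highest in R6-1, the library in which Mymk, Myog, Myod1 and Mef2c were highest, and its part in their levels was not tested.

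**Figure D4:**
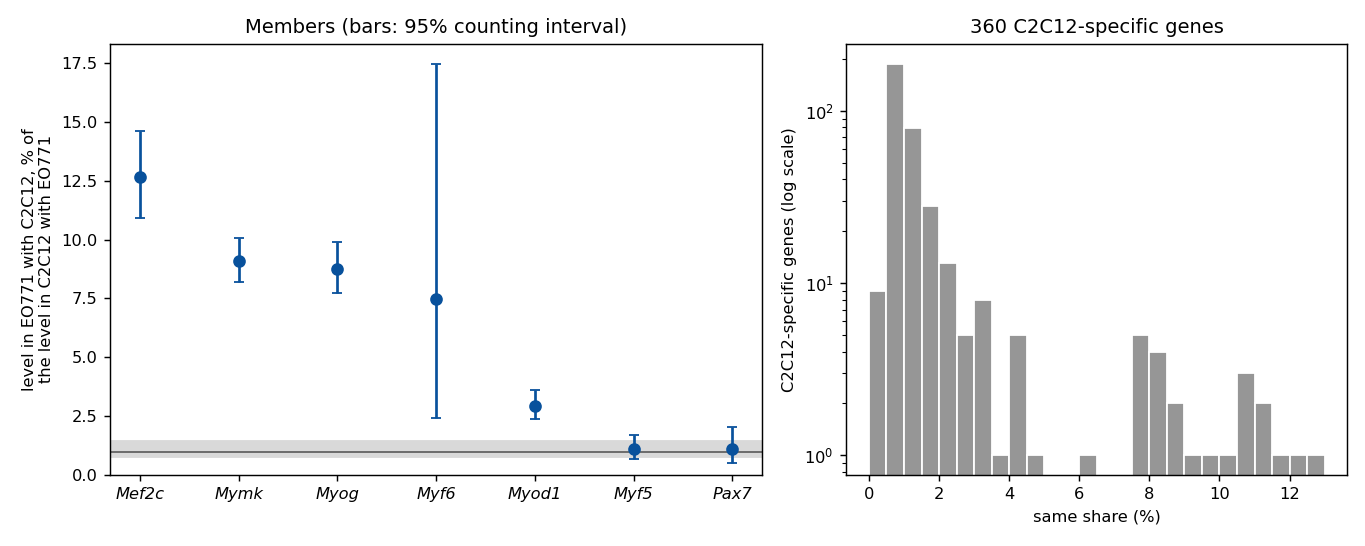
Left, the level of 7 members in EO771 with C2C12 as a percentage of their level in C2C12 with EO771, with 95% counting intervals, the grey band and line giving the quartiles and median of the C2C12-specific genes. Right, the same share for the 360 C2C12-specific genes on a log count axis, with 95% of them below 7.86% and Mef2c the highest at 12.7%.

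With C2C12 counts subtracted from EO771 with C2C12 at the median share of C2C12-specific genes, Myog, Mef2c and Mymk still passed the filter, again only through EO771 with C2C12, and Myod1 fell under it. With subtraction at the share of the muscle markers, a choice made after the values were seen, none of the 4 passed it, and 0 members were called. Of the differentiation targets 24 of 25 in the fit were called higher, and of the muscle markers 9 of 9, beside 18.7% of all genes. Of the 25 targets 4 were at 0 in all of EO771 alone, and others were near 0 there, such as Myl1 at 0.0345 CPM and Musk at 0.0285 CPM. Such genes entered the fit only through EO771 with C2C12, so the count of targets is a description.

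The broadly expressed MEF2 genes did not follow. Mef2a averaged 83.7 ± 7.24 CPM in EO771 with C2C12 and 75.8 ± 11.0 CPM in EO771 alone (SD, n = 4; log2 0.07, adjusted p = 0.720, edgeR). Mef2d averaged 146 ± 9.22 CPM with C2C12 and 138 ± 15.6 CPM alone (SD, n = 4; adjusted p = 0.999), and its sign changed with the scaling. Id2, at 10.9 ± 2.01 CPM with C2C12 and 20.4 ± 3.48 CPM alone, and Id3, at 4.44 ± 1.35 and 20.8 ± 4.82 CPM in the same order (SD, n = 4), both fell (adjusted p = 7.81e-05 and 5.47e-07), whereas Id1 was not called (adjusted p = 0.883). Of the 14 tested inhibitors 5 rose and 2 fell, beside 18.7% and 14.3% of all genes. Hdac5, a class IIa histone deacetylase that holds MEF2 factors inactive, rose to 49.9 ± 11.0 CPM with C2C12, against 32.3 ± 4.76 CPM alone (SD, n = 4; adjusted p = 0.0126).

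Among the other genes of the pathway in EO771 with C2C12, 0 of 3 E proteins were called, 7 of 11 tested upstream factors rose and 1 fell, 4 of 19 other fusion genes rose and 1 fell, and 10 of 12 satellite cell genes rose, beside 18.7% of all genes called higher and 14.3% lower. The count for the other fusion genes is near that background. Some upstream and satellite cell genes were near 0 in EO771 alone, such as Cxcr4 at 0.0140 CPM, and passed the filter only through co-cultured libraries. Met, the receptor for hepatocyte growth factor, averaged 328 ± 21.1 CPM with C2C12 and 219 ± 16.5 CPM alone (SD, n = 4; log2 0.51 ± 0.11 SE, adjusted p = 0.00138, edgeR). Notch1, a receptor that keeps satellite cells undifferentiated, averaged 42.6 ± 3.64 CPM with C2C12 and 16.2 ± 5.28 CPM alone (SD, n = 4; log2 1.32 ± 0.16 SE, adjusted p = 5.02e-06). The cell surface receptors Cdon and Neo1, which promote myogenic differentiation, moved apart. Cdon averaged 95.9 ± 9.24 CPM with C2C12 and 67.4 ± 6.37 CPM alone (adjusted p = 0.00402), and Neo1 79.3 ± 8.69 and 95.1 ± 7.84 CPM in the same order (SD, n = 4; adjusted p = 0.0177). Of 12 coactivators 1 rose, the acetyltransferase gene Kat2b, and 1 fell, the arginine methyltransferase gene Prmt5. Fibroblast markers, 7 of 9 tested, rose as well, and the part of C2C12 RNA in these list counts was not tested. In EO771 with MLg, 6 of 9 fibroblast markers rose and 1 fell against EO771 alone. There 5 of 11 upstream factors rose and 0 fell, and 5 of 12 satellite cell genes rose and 1 fell. Of all genes 5.99% were called higher and 3.6% lower in that comparison.

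With MLg in place of C2C12, none of Myod1, Myog, Myf5, Myf6, Pax7 and Mymk had a count in EO771, and 1 member was called. Mef2d had 112, 109, 108 and 109 CPM in EO771 with MLg (R5-1, R6-1, R6-2, R7-1) and 117, 148, 152 and 137 CPM in EO771 alone (R3-1, R3-2, R5-1, R6-2). The groups did not overlap, and Mef2d fell by 0.32 on the log2 scale (SE 0.09, adjusted p = 0.0323, edgeR), the 1 member called of 6 in the fit, 3 of which had no count in either group, while 9.59% of genes were called, 5.99% higher and 3.6% lower. Groups that do not overlap were found for 14.4% of genes. The call was not kept without EO771 alone R3-2 (adjusted p = 0.109), R5-1 (0.166) or R6-2 (0.0908), or without EO771 with MLg R6-1 (0.0598), R6-2 (0.0973) or R7-1 (0.0636). It was also not kept without the filter (adjusted p = 0.0719), in a fit of all 28 libraries (0.145) or with partner counts subtracted (0.0618). Mef2a averaged 59.6 ± 8.50 CPM with MLg and 75.8 ± 11.0 CPM alone (SD, n = 4; log2 -0.34, adjusted p = 0.101), and was called without EO771 with MLg R6-1 (adjusted p = 0.0432). Mef2c had 0.222 ± 0.121 CPM with MLg and 0.0890 ± 0.0570 CPM alone (SD, n = 4; log2 1.29, adjusted p = 0.288), and MLg itself holds this transcript. Id1, Id2 and Id3 all fell (adjusted p = 0.00166, 1.66e-07 and 2.17e-07, edgeR). They averaged 4.93 ± 2.12, 5.69 ± 0.469 and 3.37 ± 0.628 CPM with MLg. Alone they averaged 11.8 ± 2.80, 20.4 ± 3.48 and 20.8 ± 4.82 CPM (SD, n = 4). Of the 14 tested inhibitors 0 rose and 6 fell. Hdac5, which rose with C2C12, fell with MLg, to 19.0 ± 4.52 CPM (SD, n = 4, adjusted p = 0.00354, edgeR). Met and Notch1 rose with MLg too, to 314 ± 37.1 and 27.6 ± 1.20 CPM, and Neo1 fell, to 70.0 ± 6.68 CPM (SD, n = 4). Their adjusted p was 0.00227, 0.0023 and 0.0107 (edgeR), while Cdon was not called (0.323).

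All 6 members in the fit were called higher in EO771 with C2C12 than in EO771 with MLg (27.7% of genes called, 15% higher). Myod1, Myog and Mymk had no count in EO771 with MLg, and Mef2c had only 0.109 to 0.392 CPM there. These members entered the fit only through EO771 with C2C12, so the count is a description. Of all called genes 54.2% were higher, and 68.6% with scaling by library totals only. For Mef2d, which averaged 146 ± 9.22 CPM with C2C12 and 110 ± 1.41 CPM with MLg (SD, n = 4), the log2 fold change was 0.32 ± 0.09 (SE, adjusted p = 0.0154, edgeR). For Mef2a, at 83.7 ± 7.24 and 59.6 ± 8.50 CPM in the same order (SD, n = 4), it was 0.40 ± 0.12 (SE, adjusted p = 0.0206). Neither gene's groups overlapped, as in 27% of genes. Mef2c differed by a log2 fold change of 3.34 ± 0.54 (SE, adjusted p = 0.000189, edgeR), a description for the reason above. Myod1, Myog and Mymk were at least 15.7-fold, 44.4-fold and 63.6-fold higher with C2C12 than in EO771 with MLg taken at 3 counts per library (10.2-fold, 26.5-fold and 36.9-fold without EO771 with C2C12 R6-1). For Mef2a the call was not kept without EO771 with C2C12 R3-1 (0.0654) or EO771 with MLg R7-1 (0.0594). With C2C12 counts subtracted at the muscle marker share 1 member was called, Mef2d, and Mef2a had an adjusted p of 0.152. The 3 EO771 comparisons share libraries, so their values are not independent.

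MLg fibroblasts expressed 3 of the members, the MEF2 genes, and none was called with EO771. Of the 3 tested, 0 were called (14.7% of 16823 genes were, 9.89% higher and 4.81% lower), 1 had an unadjusted p under 0.05, Mef2d, and 0 were called by DESeq2. With EO771 counts subtracted at the median share of EO771-specific genes, 776 of 16430 genes were called, 549 higher and 227 lower. The values below are without subtraction. Mef2d had 122, 116, 119 and 117 CPM in MLg with EO771 (R5-1, R6-1, R6-2, R7-1) and 109, 110, 103 and 111 CPM in MLg alone (R3-2, R5-2, R6-1, R6-2). The groups did not overlap, as in 20.3% of genes, and the log2 fold change was 0.16 ± 0.07 (SE, unadjusted p = 0.0330, adjusted p = 0.131, edgeR). Mef2a averaged 63.5 ± 6.75 CPM with EO771 and 68.8 ± 2.20 CPM alone (SD, n = 4; log2 -0.09 ± 0.08 SE, adjusted p = 0.449). Mef2c averaged 11.2 ± 5.28 CPM with EO771 and 13.0 ± 4.15 CPM alone (SD, n = 4; log2 -0.20 ± 0.29 SE, adjusted p = 0.698). The other members had at most 22 counts in any MLg library.

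Among the pathway genes in MLg with EO771, 2 of 15 tested inhibitors rose and 2 fell, beside 9.89% and 4.81% of all genes. Hes1, a Notch target that represses myogenic genes, averaged 12.6 ± 5.00 CPM with EO771 and 2.51 ± 0.835 CPM alone (SD, n = 4; log2 2.35 ± 0.28 SE, adjusted p = 0.000122, edgeR). Id2 fell, averaging 26.4 ± 5.95 CPM with EO771 and 36.8 ± 1.38 CPM alone (SD, n = 4; adjusted p = 0.0399). Notch1 averaged 25.9 ± 4.86 CPM with EO771 and 13.9 ± 2.87 CPM alone (SD, n = 4; adjusted p = 0.00293), while Notch2 fell to 185 ± 13.7 CPM with EO771, against 227 ± 14.6 CPM alone (SD, n = 4; adjusted p = 0.0344). EO771 with MLg itself held 0.669 ± 0.263 CPM of Hes1 and 5.69 ± 0.469 CPM of Id2 (SD, n = 4). It held 27.6 ± 1.20 CPM of Notch1 and 239 ± 81.3 CPM of Notch2 (SD, n = 4). EO771-specific genes stood at a median of 8.36% ± 3.24 (SD, n = 4) of their EO771 level in MLg with EO771. The part of EO771 RNA in these values was not tested.

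The C2C12 and MLg responses to EO771 were compared by an interaction term, which is readable only for the MEF2 genes that both lines express. The difference in log2 fold change, C2C12 minus MLg, was -0.01 ± 0.19 for Mef2a, 0.13 ± 0.87 for Mef2c and -0.20 ± 0.15 for Mef2d (SE). None was called (adjusted p = 1.00, 0.989 and 0.640, edgeR), 0 of 9 members had an unadjusted p under 0.05, 0 were called by DESeq2, and 1.84% of 18647 genes were called (0.778% higher and 1.06% lower).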

How the data were processed

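The authors deposited raw counts per gene, 1 table per library, and tools listed in the submitters' processing notes, with no roles, are STAR 2.7.10a, Subread 2.0.1 with featureCounts, fastp and DESeq2. No source used here states the strand option. All 55536 IDs were found in GENCODE M21 (GRCm38), which gave symbols, coordinates and exon lengths. The members and gene lists were chosen with earlier results of these data known. Counts were tested with edgeR 4.0.16 (R 4.3.3, quasi-likelihood F test, TMM, filterByExpr with minimum count 10 and minimum total 15, Benjamini-Hochberg over all genes, threshold 0.05). C2C12 and MLg libraries had a fit each, the 12 EO771 libraries 1, the 12 libraries of lines alone 1, and the 16 host libraries 1. Partner-specific genes had a mean of at least 20 CPM in the partner alone and at most 0.2 CPM in every library of the line alone. Same-numbered C2C12 libraries deviated together (r = 0.280 to 0.584 over 4 pairs), and the R number was taken to pair them. Pairs with different numbers had r from -0.671 to 0.296, so the ranges overlap and the pairing is an assumption. DESeq2 1.42.0, other scalings, filters, halved even counts, blocks and left-out libraries were alternatives. The scripts were tested on simulated data. Besides the members, Mymx and Id1, Id2 and Id3, genes were named by a rule. It took the largest called rise and fall at 5 CPM or more per list, and the nearest 3 by correlation. In some comparisons not every gene given by the rule was named, and genes named in 1 comparison were also given in others. Twist1, Myl1, Chrng, Musk and Cxcr4 were named after their values were seen.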

Additional observations from a re-analysis of the deposited data

Results flagged for a closer look

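In 38 sets of 4 libraries with at least 20 counts for the gene, 3 held a library whose gap to its nearest neighbour took up more of the range than is usual for 4 values, where chance gives about 1 in 20. Pax7 in C2C12 alone was highest in R5-1, at 15.0 CPM, with the other 3 libraries between 0.684 and 2.92 CPM. Myf6 in C2C12 alone was also highest in R5-1, at 1.48 CPM, with the others between 0.182 and 0.311 CPM. Myog in MLg alone was highest in R3-2, at 0.316 CPM (22 counts), with 0 to 0.0324 CPM in the others.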

How the results depend on the processing

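Of the results other than counts of members called, 847 values under alternatives stayed the same and 57 changed sign. A further 15 lost a call, 3 gained one and 7 values of other kinds moved. For fold changes, staying the same means keeping direction and side of the threshold, and levels and ranks were judged by whether they moved. For C2C12 with EO771 against alone, the replicate block by R number gave -0.42 for Myod1, -0.50 for Myf6 and -0.12 for Pax7, with no member called. Leaving out the R3 libraries gave -0.080 for Myod1, -0.20 for Myf6 and 0.15 for Mef2a. Leaving out 1 library at a time gave -0.046 to 0.83 for Myod1, -0.62 to 0.36 for Myog, -0.15 to 1.25 for Myf6, -0.46 to 0.68 for Mef2c, -0.15 to 0.026 for Mef2d and -0.51 to 0.55 for Mymk. For Mef2d in EO771 with C2C12 against alone, upper-quartile scaling gave 0.012, RLE scaling 0.0087, library totals 0.075, DESeq2 0.0087, all 28 libraries 0.057, partner subtraction 0.013, subtraction at the muscle marker share 0.043, and leaving out 1 library -0.082 to 0.049. Mef2a there gave -0.024 at the muscle marker share and -0.011 to 0.15 with 1 library left out. In EO771 with MLg against alone, partner subtraction gave -0.62 for Mef2c. In MLg with EO771 against alone, Mef2c ran from -0.55 to 0.072 with 1 library left out.

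For the difference of responses, Mef2a gave 0.060 with upper-quartile scaling, 0.069 with library totals, 0.013 without a filter, 0.0094 with all 28 libraries, 0.0083 with partner subtraction, 0.24 without R3 and -0.15 to 0.061 with 1 library left out. Mef2c gave -0.45 there without R3 and -0.28 to 0.87 with 1 library left out. Mef2c in C2C12 alone against MLg alone gave -0.35 with the replicate block and -0.079 to 1.08 with 1 library left out.

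Counts of members called moved in 4 comparisons. For EO771 with C2C12 against alone, 0 were called with subtraction at the muscle marker share. For EO771 with MLg against alone, 0 were called without a filter, with all 28 libraries, with the replicate block and with partner subtraction, and 0 to 1 with 1 library left out. For EO771 with C2C12 against EO771 with MLg, 1 was called at the muscle marker share. For MLg alone against EO771 alone, DESeq2 called 4, and 1 to 2 were called with 1 library left out. The cause of each change was not tested. R numbers did not pair the MLg or EO771 libraries in the data (r at most 0.146), so the block there rests on a shared number only. Depth limits Myf6 and Pax7 in EO771 with C2C12, at 6 and 15 counts in all.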
